A study of Chrysanthemum x morifolium with 6 samples.

Results

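B3 domain factors are plant regulators that bind DNA through the B3 fold. The ones described here are the clusters that the deposited table assigns to its ABI3VP1 family. A cluster is an assembled transcript or group of transcripts, and its name is that of the best Swiss-Prot match, which does not establish orthology. Of 245 clusters in that family, 101 had no Swiss-Prot match, 2 matched another organism and 142 matched a flowering plant. Removing 19 clusters named auxin response factor or ethylene-responsive left 123 members, out of 10744 clusters in the table. No member also stood in the ARF or AP2-EREBP family. The members carried 29 protein names, 60 clusters being matched to Arabidopsis and 63 to rice. The label held against the domain annotation: 120 members had the B3 domain in PFAM and 3 had no PFAM entry. By name, 19 were VAL factors, 9 were REM factors, 94 were other B3 domain-containing proteins, and 1 was the G protein subunit XLG1. No member was named ABI3.

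The roots came from greenhouse seedlings of the chrysanthemum (Chrysanthemum x morifolium) cultivar jinba at 1 month of age, under a 16 h photoperiod. The salt group (n = 3 libraries) was given 100 mM salt water and the control group (n = 3) purified water, and both were collected after 24 h. The labels do not say which salt was used, and they call the 3 libraries of each group biological replicates without saying whether plants were pooled. Library depth, as recovered from the deposited values, was 14.7, 16.1 and 12.8 M fragments (M for mega) in the salt libraries and 16.2, 20.1 and 15.9 M in the control libraries.

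The B3 fold is shared by several branches: the auxin response factors, the RAV proteins that also carry an AP2 domain, the REM proteins, and the branch of LEC2, ABI3, FUS3 and VAL. In Arabidopsis, ABI3, LEC2 and FUS3 switch on seed maturation genes, while VAL1 and VAL2 keep those genes silent in seedlings together with polycomb proteins and histone deacetylases. Several VAL proteins also carry a CW zinc finger, a module that binds methylated histone H3.

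Whole-root RNA was measured, so fewer cells of a type and less RNA per cell cannot be told apart. Clusters matched in Swiss-Prot to organisms other than flowering plants held 7.80, 11.5 and 11.3% of the table's counts in the salt libraries and 3.99 to 4.03% in the control libraries. Levels in CPM (the counts-per-million measure) are therefore given at a scaling to all clusters, and results are set beside a scaling to plant-matched clusters alone. That second scaling shifted the tested clusters upward, their median by 0.58 on the log2 scale. Root identity genes such as SHORT-ROOT, SCARECROW and PLETHORA relatives had counts in all 52 of their clusters, with a summed level of 115 to 122 CPM in salt and 159 to 165 CPM in control. The 16 shoot and leaf marker clusters summed to 23.4 to 25.4 CPM in salt and 31.7 to 32.6 CPM in control. The 9 flower and seed marker clusters, which include the FUS3 members, summed to 4.16 to 4.90 CPM in salt and 4.46 to 5.13 CPM in control. At this scaling the flower and seed groups overlapped. How salt and control compared in the sums of all 3 lists depended on the scaling, and only the shoot and leaf groups stood apart at both. Scaled to plant-matched clusters, the root sum was 133 to 149 CPM in salt and 133 to 136 CPM in control, with overlapping groups. The shoot and leaf sum was then 28.6 to 29.3 CPM in salt and 25.8 to 27.3 CPM in control, and the flower and seed sum 5.09 to 5.66 CPM in salt and 3.74 to 4.24 CPM in control. Single root clusters differed in direction at each scaling. Of 31 tested, 2 were called higher and 8 lower, beside 23.9 and 29.3% of all tested clusters. Scaled to plant-matched clusters, 4 of 30 were higher and 2 lower, beside 34.0 and 15.8% of all tested clusters. The GLABRA2 clusters were lower, with log2 fold changes of -2.66 and -2.30 (-2.13 and -1.78 scaled to plant-matched clusters). The PLT2 Cluster-71316.254081 was higher, at 1.29 (1.81 scaled to plant-matched clusters). None of the marker clusters of the 3 lists was at 0 in every library. The part of these shifts in the results below was not tested.

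Of the 123 members, 67 had enough counts to be tested, and 56 did not, the highest of those averaging 0.688 CPM. At an adjusted p under 0.05 (edgeR quasi-likelihood test, Benjamini-Hochberg over 5284 tested clusters), 12 members were higher in salt, 15 were lower and 40 were not called. Of all tested clusters 23.9% were higher and 29.3% lower, and the shares of the members, 17.9 and 22.4%, lay near that background. All members are plant-matched by the rule, and of the tested plant-matched clusters 12.3% were higher and 35.5% lower. Beside those, the members were higher more often and lower less often. The tested members had a median log2 fold change of -0.15, the whole set of tested clusters one of -0.37, and the plant-matched clusters one of -0.62. At a change of at least 2-fold, 11 members were higher and 13 lower, beside 20.6 and 22.3% of all tested clusters. The salt libraries lay wholly above the control libraries for 15 tested members and wholly below for 24, beside 27.6 and 39.6% of all tested clusters. With the scaling to plant-matched clusters, 19 of 66 tested members were higher and 7 lower, beside 34.0 and 15.8% of all tested clusters. The member shares there were 28.8 and 10.6%, and those of plant-matched clusters 22.7 and 19.3%. All 12 higher calls were also made at that scaling, 7 of the 15 lower calls were, and 7 members not called at the first scaling became higher. Several of these added higher calls were lost when 1 library was left out, as given below for the single clusters.

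**Figure D1:**
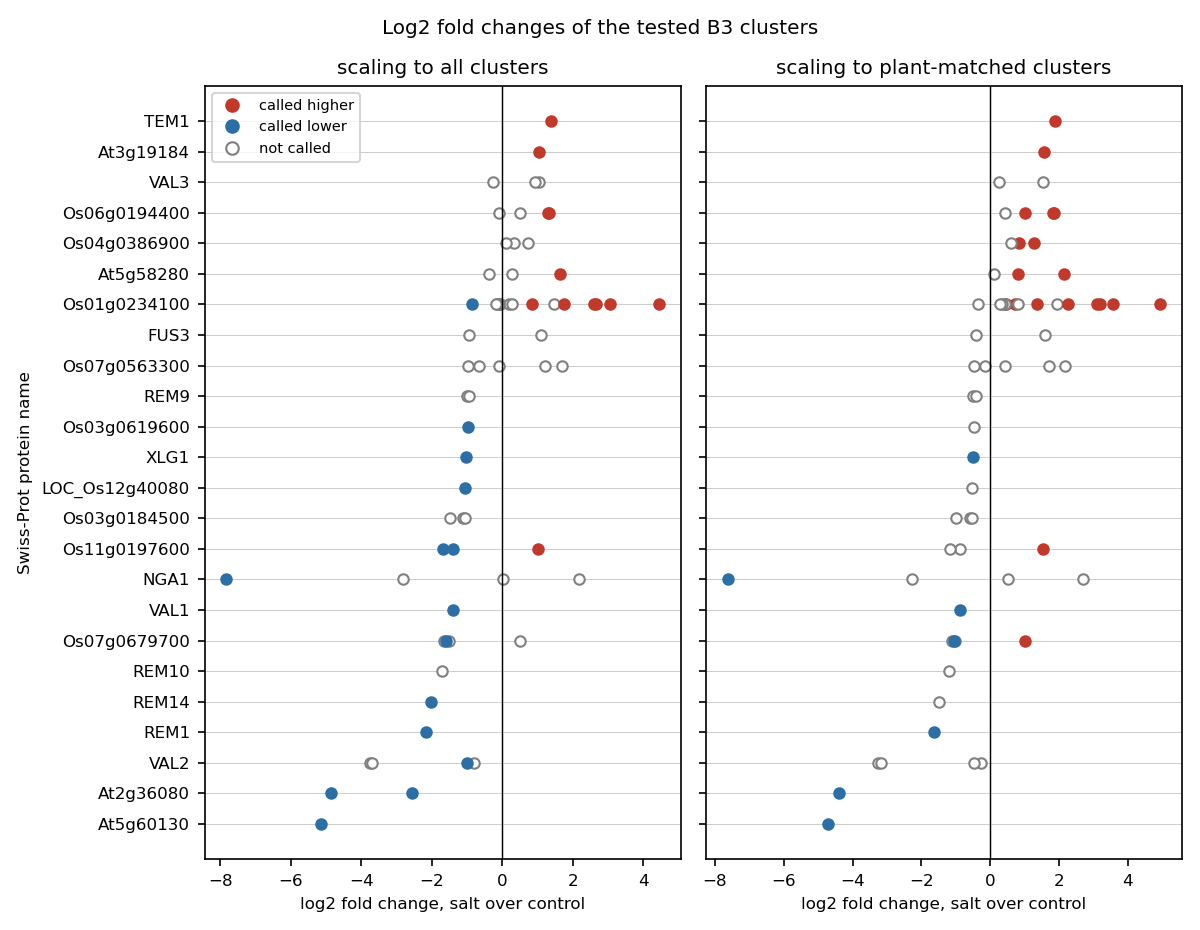
Log2 fold change of salt over control (horizontal axes) for each member cluster tested at the first scaling, in rows by Swiss-Prot protein name. The left panel holds 67 clusters at the scaling to all clusters. The right panel holds those of them also tested at the scaling to plant-matched clusters. Filled red and blue points are called higher and lower at an adjusted p under 0.05 and open grey points are not called. The second scaling moves points to the right, giving 19 higher and 7 lower calls where the first gives 12 and 15; the NGA1 point at the far left is a cluster with 0 counts in all salt libraries, so its fitted value has no fixed size.

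The VAL factors have well-studied roles in Arabidopsis, and here VAL1 and the summed VAL2 clusters were lower in salt. VAL1 (Cluster-71316.169371) had 2.41, 2.86 and 3.25 CPM in the salt libraries, against 8.39, 7.98 and 6.33 CPM in the control libraries. The salt libraries were all below the control libraries, with a log2 fold change of -1.41 (SE 0.21, adjusted p = 0.0020), and of -0.89 (adjusted p = 0.014) at the plant scaling. There the call was lost without control replicate 1 or 2 (adjusted p = 0.062 and 0.055). The PFAM annotation gives this cluster both a B3 domain and a CW zinc finger.

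VAL2 was split over 4 tested clusters of nearly the same length, 2711 to 2731 bases, which form pairs with Swiss-Prot scores of 1700 and 1705. Cluster-71316.141016 had 9.94, 9.55 and 10.1 CPM in salt, against 19.2, 28.3 and 11.5 CPM in control. It was called lower, with a log2 fold change of -1.0 (SE 0.31, adjusted p = 0.031), but not at the plant scaling (-0.47, adjusted p = 0.23). The call was also lost without any 1 library other than control replicate 3, at adjusted p values of 0.072 to 0.092. Its partner Cluster-71316.141017 had 0, 1.36 and 0 CPM in salt, against 5.69, 0 and 13.1 CPM in control. In the control libraries the partner was high where the first cluster was low, and at 0 where the first was highest. The other pair did the same: Cluster-71316.161433 had 11.7, 10.3 and 11.8 CPM in salt, against 20.5, 27.4 and 11.2 CPM in control, and Cluster-71316.161434 had 0, 1.30 and 0 CPM in salt, against 5.92, 0 and 13.0 CPM in control. Reads of near-identical clusters can be divided between them by the counting, so the single clusters are uncertain. Cluster-71316.161433 was not called (log2 fold change -0.81, adjusted p = 0.064), but was without control replicate 3 (adjusted p = 0.0068).

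Summed within a pair, the spread between libraries was small. The score-1705 pair had 9.94, 10.9 and 10.1 CPM in salt, against 24.9, 28.3 and 24.6 CPM in control, a log2 fold change of -1.33 (SE 0.11, adjusted p = 1.8e-05). The score-1700 pair had 11.7, 11.6 and 11.8 CPM in salt, against 26.5, 27.4 and 24.2 CPM in control, a log2 fold change of -1.15 (SE 0.10, adjusted p = 2.4e-05). Over all 8 clusters named VAL2, the level averaged 22.4 ± 0.662 CPM in salt and 53.5 ± 3.71 CPM in control (SD, n = 3 each). That sum fell by 1.26 on the log2 scale (SE 0.08, adjusted p = 1.4e-06), and by 0.73 at the plant scaling (adjusted p = 3.1e-05). These sums were formed after the values of the single clusters had been seen, and each was refitted with the whole table summed the same way.

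**Figure D2:**
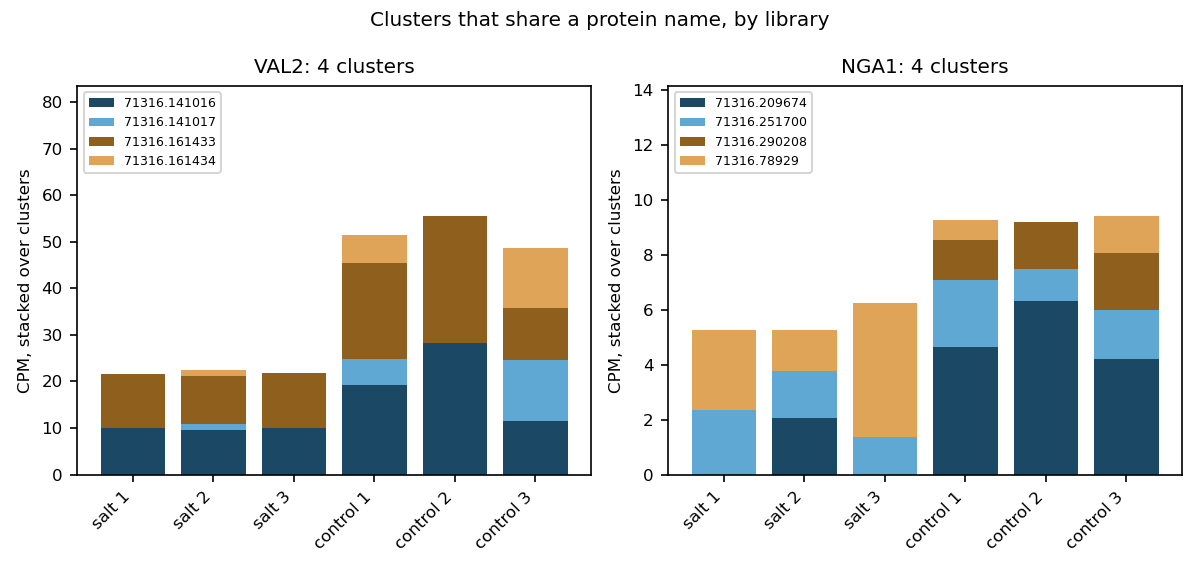
CPM (vertical axes) in each library, salt on the left and control on the right of each panel, stacked over the 4 tested VAL2 clusters and the 4 NGA1 clusters. The division between stacked clusters changes from library to library, while the stacks of VAL2 stand near 22 CPM in salt and near 50 CPM in control, and those of NGA1 at 5.26 to 6.26 CPM in salt and 9.22 to 9.44 CPM in control.

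VAL3, the relative of these repressors that lacks a CW entry here, had 9 clusters, of which 3 were tested and 0 called. Their log2 fold changes lay between -0.26 and 1.04, and none of them passed at the plant scaling either. Summed, VAL3 had 3.76, 3.64 and 4.22 CPM in salt, against 3.64, 4.14 and 4.92 CPM in control, and the groups overlapped. The log2 fold change of this sum was -0.13 (SE 0.20, adjusted p = 0.58), and 0.39 (adjusted p = 0.12) at the plant scaling.

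Of the 8 tested VAL clusters, 0 were higher and 2 lower; of the 7 members with a CW zinc finger, 6 were tested, 0 were higher and 3 lower. The 25% of VAL clusters called lower lies near the 29.3% of all tested clusters, so the counts alone do not set the VAL clusters apart. Of the 6 tested CW members 50% were lower, or 33.3% at the plant scaling, beside 29.3 and 15.8% of all tested clusters. These are few clusters and include the VAL2 clusters, whose single counts are uncertain. Besides VAL1 and VAL2 clusters the CW members hold Cluster-71316.179435, named for the rice protein Os07g0679700, which is matched to VAL2 in the NR database. It had 5.18, 4.68 and 4.79 CPM in salt, against 14.1, 17.7 and 12.2 CPM in control, with a log2 fold change of -1.58 (SE 0.17, adjusted p = 0.00069; -1.06 at the plant scaling). Summed, the 7 CW members had 29.6, 30.6 and 29.9 CPM in salt, against 74.0, 81.9 and 67.9 CPM in control. Scaled to plant-matched clusters, the sums were 34.1, 37.4 and 36.5 CPM in salt and 62.1, 66.7 and 57.8 CPM in control, so the groups stayed apart. Another Os07g0679700 cluster without the CW entry, Cluster-71316.189705, had 5.47, 4.42 and 5.28 CPM in salt, against 3.52, 4.19 and 2.99 CPM in control. It was not called at the first scaling (log2 fold change 0.50, adjusted p = 0.093) and was higher at the plant scaling (1.02, adjusted p = 0.0060).

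FUS3, a seed maturation activator in Arabidopsis, was present at a low level. Its 4 clusters summed to 3.55, 2.53 and 2.60 CPM in salt and 2.46, 2.76 and 3.11 CPM in control. At this scaling, to all clusters, the groups overlapped. The log2 fold change of the sum was 0.06 (SE 0.25, adjusted p = 0.83), and 0.58 (adjusted p = 0.057) at the plant scaling.

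The REM proteins take their name from expression in reproductive meristems. Of their 9 clusters, 5 were tested, 0 were higher and 2 lower, beside 23.9% higher and 29.3% lower of all tested clusters. A count of 2 among 5 is too small to be read against that background. REM1 (Cluster-71316.208056) had 0.781, 0.520 and 0.894 CPM in salt, against 3.28, 2.56 and 3.99 CPM in control. Each salt library was below each control library, with a log2 fold change of -2.16 (SE 0.35, adjusted p = 0.0029), and of -1.65 (adjusted p = 0.0088) at the plant scaling. REM14 (Cluster-71316.75112) had 0.426, 0.130 and 0.569 CPM in salt, against 1.41, 1.77 and 1.35 CPM in control. Its log2 fold change was -2.01 (SE 0.56, adjusted p = 0.022); it was not called at the plant scaling (-1.50, adjusted p = 0.062), nor without control replicate 1, 2 or 3, where the adjusted p was 0.064, 0.085 and 0.062. REM10 and REM9 were not called cluster by cluster. Their clusters of highest level had log2 fold changes of -1.71 (adjusted p = 0.16) for REM10 and -1.01 (adjusted p = 0.066) for REM9. That REM9 cluster, Cluster-71316.281689, was called without salt replicate 1 (adjusted p = 0.039). Summed over its 4 clusters, REM10 had 0.639, 1.04 and 0.975 CPM in salt and 3.23, 2.22 and 2.93 CPM in control, and passed the test at both scalings (log2 fold changes of -1.65 and -1.13, adjusted p = 0.0015 and 0.015). Summed over its 3 clusters, REM9 had 2.34, 1.82 and 2.52 CPM in salt and 3.87, 3.84 and 4.40 CPM in control, and passed at the first scaling (log2 fold change -0.86, adjusted p = 0.0075) but not at the plant scaling (-0.34, adjusted p = 0.21). All 9 REM clusters together had 4.19, 3.51 and 4.96 CPM in salt, against 11.8, 10.4 and 12.7 CPM in control.

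NGA1 (NGATHA1), which in Arabidopsis limits growth of leaves and patterns the gynoecium, was represented by 4 clusters with the same Swiss-Prot score of 591. Cluster-71316.290208 was listed at 0 in all 3 salt libraries, against 1.47, 1.73 and 2.11 CPM in control. Taking 3 counts over the group as the limit that a count of 0 allows, which covers counting error only, it was at least 24.6-fold lower in salt at the scaling to all clusters (adjusted p = 0.0018). No such limit was computed at the plant scaling, which shifted the tested clusters upward. The near copies of Cluster-71316.290208 did not all do the same. Cluster-71316.209674 had 0, 2.08 and 0 CPM in salt, against 4.63, 6.31 and 4.22 CPM in control, and was not called (adjusted p = 0.11), except without salt replicate 2 (adjusted p = 0.0024). Cluster-71316.78929 had 2.91, 1.49 and 4.87 CPM in salt, against 0.704, 0 and 1.35 CPM in control, and was not called either (adjusted p = 0.13). Summed over the 4 clusters, NGA1 had 5.26, 5.26 and 6.26 CPM in salt, against 9.27, 9.22 and 9.44 CPM in control. The sum fell by 0.74 on the log2 scale (SE 0.15, adjusted p = 0.0015), but was not called at the plant scaling (-0.21, adjusted p = 0.24). The 0 of 1 cluster in the salt libraries thus stands beside a smaller difference of the sum.

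At2g36080, a protein of the NGATHA-like type whose Swiss-Prot gene name is ARF31, was low in both groups. Its Cluster-71316.152321 was nearly at 0 in salt, with 0, 0 and 1 count there and 17, 18 and 15 counts in control (adjusted p = 0.0036; 0.0059 at the plant scaling). Cluster-45511.0, too low to test, averaged 0.361 CPM in salt and 0.480 CPM in control. The 4 clusters of this name summed to 0.710, 0.390 and 0.569 CPM in salt and 2.52, 2.07 and 2.40 CPM in control, a log2 fold change of -2.06 (SE 0.35, adjusted p = 0.00060). At5g60130 was similar: Cluster-71316.246592 had 1, 0 and 0 counts in salt and 27, 18 and 15 counts in control. Its 4 clusters summed to 0.213, 0.130 and 0.162 CPM in salt and 2.05, 2.32 and 1.99 CPM in control, a log2 fold change of -3.60 (SE 0.41, adjusted p = 5.4e-05; -3.09 at the plant scaling). No role is given here for At5g60130.

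TEM1 (TEMPRANILLO1), an Arabidopsis repressor of flowering and of gibberellin synthesis, was among the members called higher. Its cluster in the family, Cluster-71316.36918, had 8.88, 7.53 and 7.88 CPM in salt, against 2.76, 3.06 and 3.58 CPM in control. The groups did not overlap and the log2 fold change was 1.37 (SE 0.18, adjusted p = 0.0014), or 1.89 at the plant scaling. The cluster is 581 bases long, with a B3 domain and no AP2 domain in PFAM. A TEM1 cluster with higher CPM, Cluster-71316.171545, stands outside the family and was not a member. It had 202, 162 and 149 CPM in salt, against 117, 122 and 113 CPM in control, and was higher as well (log2 fold change 0.55, SE 0.12, adjusted p = 0.0080; 1.06 at the plant scaling). It was the 1 tested cluster among 5 clusters named for AP2 and B3 domains outside the family.

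At3g19184 (Cluster-71316.37616) had 11.9, 11.8 and 15.5 CPM in salt, against 6.86, 5.57 and 6.57 CPM in control. All salt libraries were above all control libraries, with a log2 fold change of 1.04 (SE 0.17, adjusted p = 0.0026). For the rice protein Os06g0194400, 4 clusters were tested and 2 were called higher. Cluster-71316.14759 had 1.99, 1.88 and 2.27 CPM in salt, against 0.704, 0.789 and 0.938 CPM in control (log2 fold change 1.33, adjusted p = 0.012). Cluster-49256.0 had 2.63, 2.66 and 2.92 CPM in salt, against 1.52, 0.936 and 0.879 CPM in control (log2 fold change 1.29, adjusted p = 0.016), a call lost without control replicate 2 or 3 (adjusted p = 0.056 and 0.054). The cluster of highest CPM under that name, Cluster-71316.33993, had 8.73, 5.52 and 8.04 CPM in salt, against 5.34, 6.01 and 4.45 CPM in control, and was not called (log2 fold change 0.49, adjusted p = 0.11). It was called without salt replicate 2 (adjusted p = 0.041) and at the plant scaling (1.01, adjusted p = 0.0075). At5g58280 had 1 higher cluster of 3, Cluster-102751.0, with 1.78, 1.23 and 2.76 CPM in salt, against 0.645, 0.444 and 0.762 CPM in control (log2 fold change 1.63, SE 0.45, adjusted p = 0.021). That call was lost without control replicate 1 or 2 or salt replicate 3 (adjusted p = 0.062, 0.072 and 0.077). The At5g58280 cluster of highest CPM, Cluster-71316.278035, was not called, with 4.26, 3.70 and 3.74 CPM in salt, against 3.64, 2.61 and 3.40 CPM in control (log2 fold change 0.28, adjusted p = 0.34; 0.80 and adjusted p = 0.026 at the plant scaling). Its call at the plant scaling was lost without any 1 library other than control replicate 1 (adjusted p = 0.056 to 0.083).

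**Figure D3:**
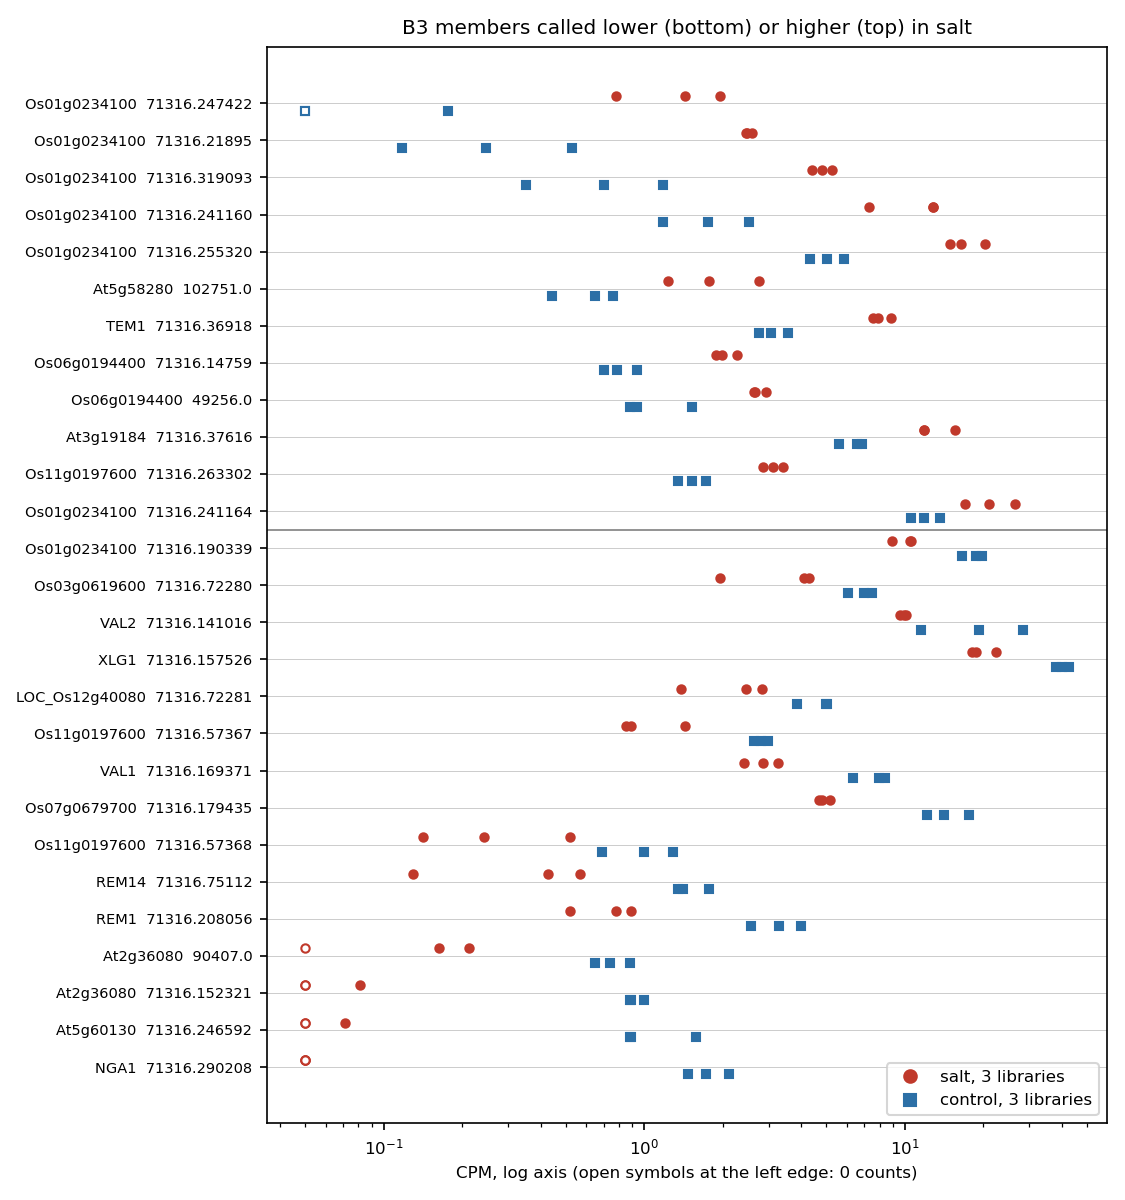
CPM on a log axis in each library for the 12 members called higher (above the line) and the 15 called lower (below it), with salt libraries as red circles just above control libraries as blue squares in each row; open symbols at the left edge stand for 0 counts. In all 27 rows the salt and control libraries do not overlap, but the rows were chosen by adjusted p on these same libraries, so this is no separate result. Of all tested clusters, salt lay wholly above control in 27.6% and wholly below in 39.6%.

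Of the 12 higher calls 6 carried the same name, that of the rice protein Os01g0234100, which had 18 clusters, 15 of them tested, 6 higher and 1 lower. Among all tested clusters, 23.9% were higher and 29.3% lower. No role is given here for this protein. The NR database divides these clusters. All 9 with an NR match named At5g42700 had low Swiss-Prot scores, 204 to 263, and of the 8 tested 6 were higher and 0 lower. The other 9 had scores of 306 to 624, and of the 7 tested 0 were higher and 1 was lower. At the plant scaling 6 of the At5g42700-like clusters were higher and 0 lower, and of the others 2 were higher and 0 lower. The shares of all tested clusters there were 34.0 and 15.8%. Some called clusters share a score, such as Cluster-71316.247422 and Cluster-71316.255320 at 260. Reads may be divided between such clusters, so the 6 calls need not be separate genes. This division was made after the values were seen and is a description without a test. Summed, the At5g42700-like clusters had 78.5, 66.3 and 64.8 CPM in salt, against 29.3, 30.8 and 28.0 CPM in control. The other clusters had 53.8, 48.3 and 50.3 CPM in salt, against 63.2, 57.2 and 55.8 CPM in control. That second difference turned with the scaling: to plant-matched clusters, the others had 61.9, 59.2 and 61.5 CPM in salt, against 53, 46.5 and 47.5 CPM in control. The At5g42700-like sums kept their direction, with 90.4, 81.2 and 79.2 CPM in salt, against 24.6, 25 and 23.8 CPM in control.

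Within the At5g42700-like clusters, Cluster-71316.255320 had 20.3, 16.4 and 14.9 CPM in salt, against 5.04, 5.87 and 4.34 CPM in control. Its log2 fold change was 1.76 (SE 0.18, adjusted p = 0.00057; 2.28 at the plant scaling). Cluster-71316.319093 had 4.40, 5.26 and 4.79 CPM in salt, against 0.352, 1.18 and 0.703 CPM in control (log2 fold change 2.67, SE 0.44, adjusted p = 0.0031). Cluster-71316.21895 had 2.49, 2.47 and 2.60 CPM in salt, against 0.117, 0.246 and 0.528 CPM in control (log2 fold change 3.06, SE 0.53, adjusted p = 0.0036). In both of these the control libraries were low and the salt libraries close together. Cluster-71316.247422 had 11, 22 and 24 counts in salt and 3, 0 and 0 counts in control, and was called as well (adjusted p = 0.012).

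A set of 4 clusters shared the score of 263. Cluster-71316.241160 had 12.8, 12.8 and 7.31 CPM in salt, against 2.52, 1.18 and 1.76 CPM in control (log2 fold change 2.59, adjusted p = 0.0016). Cluster-71316.241164 had 17.0, 21.1 and 26.4 CPM in salt, against 11.8, 13.6 and 10.6 CPM in control (log2 fold change 0.84, adjusted p = 0.0092). The other two were not called, and Cluster-71316.241161 had 11.6, 3.64 and 6.50 CPM in salt, against 6.69, 7.49 and 8.50 CPM in control. Summed over the 4, the level was 50.6, 40.7 and 40.6 CPM in salt and 23.6, 23.5 and 21.7 CPM in control, a log2 fold change of 0.94 (SE 0.10, adjusted p = 0.00011).

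Among the higher-scoring clusters, Cluster-71316.190339 held the highest level per length of all members, with a mean FPKM (fragments scaled to cluster length and depth) of 18.1 over the 6 libraries. It had 10.6, 8.90 and 10.5 CPM in salt, against 19.7, 16.5 and 18.7 CPM in control. It was lower in salt with a log2 fold change of -0.87 (SE 0.12, adjusted p = 0.0017), and missed the threshold at the plant scaling (-0.35, adjusted p = 0.053), which it passed there without control replicate 2 (adjusted p = 0.045). Cluster-71316.134679 had 13.3, 11.6 and 14.0 CPM in salt, against 15.1, 12.6 and 13.0 CPM in control, and the groups overlapped (log2 fold change -0.07, adjusted p = 0.68). The 4 clusters of score 588 summed to 21.1, 18.0 and 17.0 CPM in salt and 19.3, 21.3 and 16.3 CPM in control (log2 fold change -0.02, adjusted p = 0.89). Scaled to plant-matched clusters, Cluster-71316.134679 (0.45, adjusted p = 0.023), Cluster-71316.59192 (0.72, adjusted p = 0.014) and this sum (0.50, adjusted p = 0.0050) were called higher. The call of Cluster-71316.134679 was lost without salt replicate 3, control replicate 2 or control replicate 3 (adjusted p = 0.068, 0.087 and 0.078). That of Cluster-71316.59192 was lost without control replicate 3 (adjusted p = 0.055).

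XLG1, an unconventional G protein alpha subunit in Arabidopsis, is the member without B3 in its name. The PFAM annotation of Cluster-71316.157526 holds a G alpha domain beside the B3 domain. It had 22.4, 18.7 and 18.1 CPM in salt, against 40.2, 42.6 and 38.2 CPM in control, and the groups stood well apart. The log2 fold change was -1.03 (SE 0.11, adjusted p = 0.00059; -0.51 and adjusted p = 0.0029 at the plant scaling).

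The remaining lower calls were LOC_Os12g40080, Os03g0619600, a further At2g36080 cluster and a pair of Os11g0197600 clusters. For LOC_Os12g40080 (Cluster-71316.72281), CPM were 2.84, 2.47 and 1.38 in salt, against 5.04, 4.98 and 3.87 in control (log2 fold change -1.05, adjusted p = 0.031). Os03g0619600 (Cluster-71316.72280) had 4.12, 1.95 and 4.31 CPM in salt, against 6.04, 7.49 and 6.98 CPM in control (log2 fold change -0.99, adjusted p = 0.038). Both lost the call at the plant scaling, with adjusted p = 0.21 and 0.26, and without control replicate 1, 2 or 3, where the adjusted p reached 0.097 and 0.11. LOC_Os12g40080 also lost it without salt replicate 2 (adjusted p = 0.064). Os11g0197600 had calls in both directions at the first scaling: Cluster-71316.57367 had 0.852, 1.43 and 0.894 CPM in salt, against 2.64, 2.81 and 2.99 CPM in control (log2 fold change -1.40, adjusted p = 0.011; -0.87 and adjusted p = 0.067 at the plant scaling), while Cluster-71316.263302 had 3.12, 2.86 and 3.41 CPM in salt, against 1.35, 1.73 and 1.52 CPM in control (log2 fold change 1.02, adjusted p = 0.016; 1.55 and adjusted p = 0.0031 at the plant scaling). The call of Cluster-71316.263302 was lost without control replicate 1 (adjusted p = 0.058). These clusters have Swiss-Prot scores of 155 and 135. The second lower Os11g0197600 cluster, Cluster-71316.57368, had 0.142, 0.520 and 0.244 CPM in salt, against 0.997, 0.690 and 1.29 CPM in control (adjusted p = 0.048; 0.15 at the plant scaling). It lost its call without any 1 library other than salt replicate 2, at adjusted p values of 0.086 to 0.17. The At2g36080 cluster, Cluster-90407.0, had 3, 0 and 2 counts in salt, against 15, 15 and 11 counts in control (adjusted p = 0.033). It was not tested at the plant scaling, where it fell under the count filter, and had no call without salt replicate 1, salt replicate 3 or control replicate 3 (adjusted p = 0.056, 0.091 and 0.10).

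Os07g0563300, with 13 clusters the second most frequent name, had 5 tested clusters and 0 calls. Its cluster of highest CPM, Cluster-71316.73080, had 5.04, 6.62 and 5.12 CPM in salt, against 7.27, 5.32 and 5.28 CPM in control (log2 fold change -0.09, adjusted p = 0.75). The sum of all 13 was 16.7, 16.8 and 15.1 CPM in salt and 18.4, 14.3 and 16.7 CPM in control (log2 fold change -0.02, adjusted p = 0.89), and was called higher at the plant scaling (0.50, adjusted p = 0.0058). For Os04g0386900, 0 of 3 tested clusters were called at the first scaling, and the one of highest CPM, Cluster-71316.65127, had a log2 fold change of 0.32 (adjusted p = 0.34). At the plant scaling Cluster-71316.65127 and Cluster-71316.65128 were called higher (adjusted p = 0.032 and 0.043). The first lost that call without any 1 library other than salt replicate 2 (adjusted p = 0.068 to 0.10). The second lost it without any 1 library other than control replicate 2 (adjusted p = 0.066 to 0.12). Summed over its 4 clusters, Os04g0386900 had 7.53, 5.0 and 7.31 CPM in salt, against 5.16, 4.88 and 4.51 CPM in control, with a log2 fold change of 0.44 (SE 0.20, adjusted p = 0.070; 0.96 and adjusted p = 0.0020 at the plant scaling). For Os03g0184500, 0 of 3 tested clusters were called, although Cluster-71316.70502 was without salt replicate 1 (adjusted p = 0.0054). The 5 clusters together had 1.99, 1.95 and 1.71 CPM in salt, against 4.40, 5.72 and 4.34 CPM in control (log2 fold change -1.35, SE 0.23, adjusted p = 0.00054; -0.83 and adjusted p = 0.0084 at the plant scaling).

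When all clusters of a protein name were summed and the whole table was refitted on such sums, 25 of the 29 names were tested. TEM1, At3g19184, Os01g0234100 and Os06g0194400 were the 4 called higher, and 14 were lower, beside 36.1% higher and 38.5% lower of all 2252 sums tested. The plant scaling gave 7 higher and 10 lower, beside 47.9 and 22.5% of 2279 sums. Summing only clusters with the same Swiss-Prot entry and score gave 52 tested sets, 10 higher and 19 lower, beside 27.6 and 37.6% of all sets tested. With the plant scaling it gave 20 higher and 12 lower sets, beside 38.9 and 21.3%. For the summed level of all members the direction depended on the scaling. It was 292, 259 and 272 CPM in salt and 320, 322 and 304 CPM in control, but 336, 317 and 332 CPM in salt and 268, 262 and 259 CPM in control at the plant scaling.

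**Figure D4:**
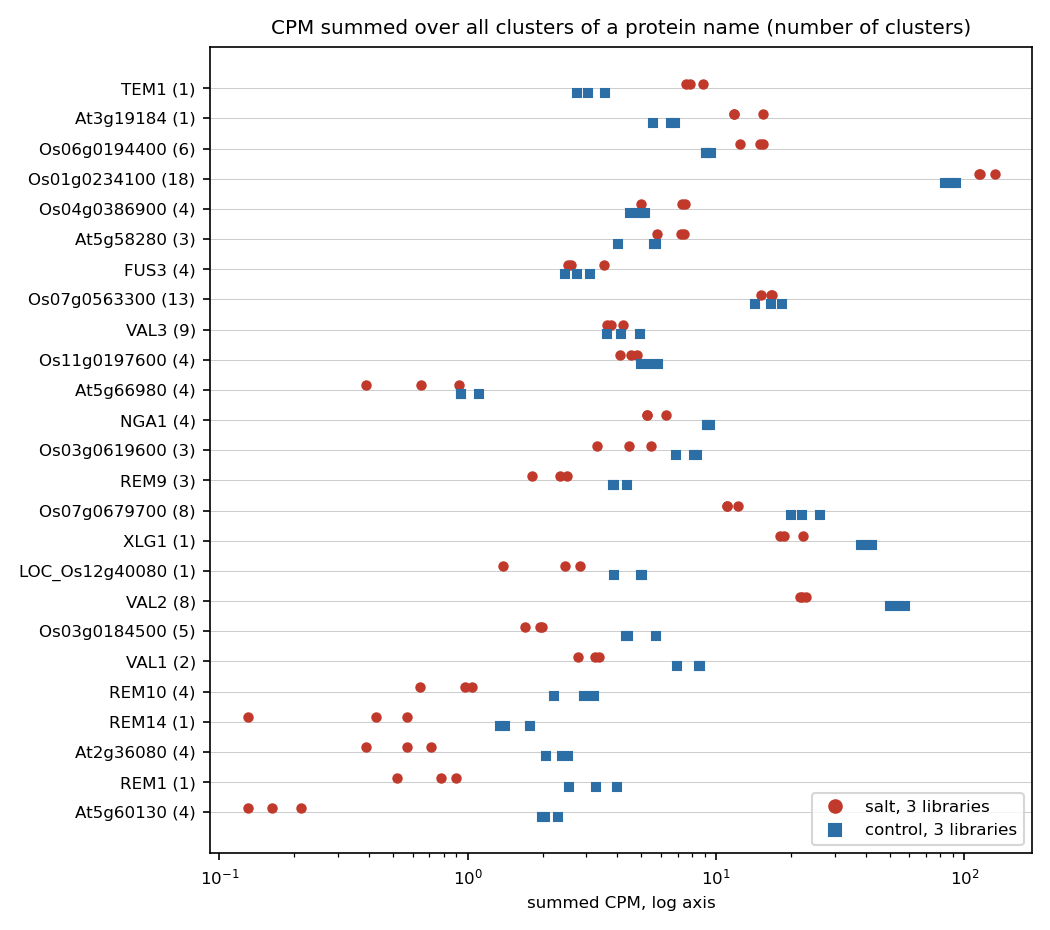
CPM summed over all clusters of a protein name (log axis) in each library, for the 25 tested names, with the number of clusters in brackets; salt libraries are red circles just above control libraries as blue squares. At this scaling, to all clusters, VAL2 stands at 21.9 to 23.1 CPM in salt and 50.1 to 57.5 CPM in control. The points of VAL3 and FUS3 overlap there.

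Chromatin factors that work with VAL proteins in Arabidopsis were counted from a list of names. Of 33 clusters, 16 were tested, 2 were higher and 13 lower, with a median log2 fold change of -1.85. Over all tested clusters 23.9% were higher and 29.3% lower, and over plant-matched ones 12.3 and 35.5%. At the plant scaling 3 of 15 were higher and 10 lower, with a median of -1.33, beside 34.0 and 15.8% of all tested clusters. PICKLE (Cluster-71316.133952), a chromatin remodeler that represses seed traits in seedlings, had 9.16, 12.1 and 15.2 CPM in salt, against 47.7, 42.9 and 39.3 CPM in control. The groups were far apart, with a log2 fold change of -1.83 (SE 0.19, adjusted p = 0.00059). EZA1 (Cluster-71316.214998), a polycomb methyltransferase of histone H3, had 5.61, 7.99 and 7.39 CPM in salt, against 20.1, 19.4 and 19.2 CPM in control, with a log2 fold change of -1.48 (SE 0.15, adjusted p = 0.00056). Most of the list's tested clusters and lower calls were named Sin3-like, scaffolds for histone deacetylases, and most of those calls Sin3-like 2. The count and median of the list thus describe mainly this family. Reads may be divided between clusters of 1 name, so these calls need not be separate genes. The exception among the tested Sin3-like clusters was a Sin3-like 5 cluster, Cluster-71316.4932, which was higher, with 1.42, 2.08 and 1.38 CPM in salt, against 0, 0.0986 and 0.176 CPM in control (adjusted p = 0.0053). The histone deacetylase HDT1 (Cluster-71316.168572) was higher, with 38.3, 39.1 and 40.7 CPM in salt, against 28.5, 29.6 and 26.8 CPM in control (log2 fold change 0.48, SE 0.07, adjusted p = 0.0024). A second HDT1 cluster with higher CPM, Cluster-71316.168576, had 61.6, 70.3 and 88.6 CPM in salt, against 70.9, 81.7 and 76.0 CPM in control, and was not called (log2 fold change -0.05, adjusted p = 0.77), but was higher at the plant scaling (0.48, adjusted p = 0.037).

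Partners of the ABI3 branch in seed and abscisic acid signalling numbered 25 clusters, of which 15 were tested, 1 was higher and 13 were lower, with a median log2 fold change of -1.24. At the plant scaling 1 was higher and 7 lower, with a median of -0.72. Among the lower ones Cluster-71316.164777, an ABI5-like bZIP factor, had 11.4, 10.2 and 10.6 CPM in salt, against 26.0, 24.0 and 26.1 CPM in control (log2 fold change -1.24, SE 0.09, adjusted p = 0.00021). The 1 higher cluster, the NF-Y subunit C Cluster-113001.1, had 3.48, 2.21 and 3.66 CPM in salt, against 1.76, 0.887 and 1.35 CPM in control (log2 fold change 1.22, adjusted p = 0.032). Auxin response factors, the B3 proteins with the most clusters, had 96 of 145 tested, 2 higher and 52 lower, with a median of -1.54. With the plant scaling 5 of 94 were higher and 37 lower, with a median of -1.02. Over all tested clusters matched to flowering plants the median was -0.62, with 472 of 3829 higher and 1361 lower. At the plant scaling it was -0.08, with 854 of 3766 higher and 726 lower.

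**Figure D5:**
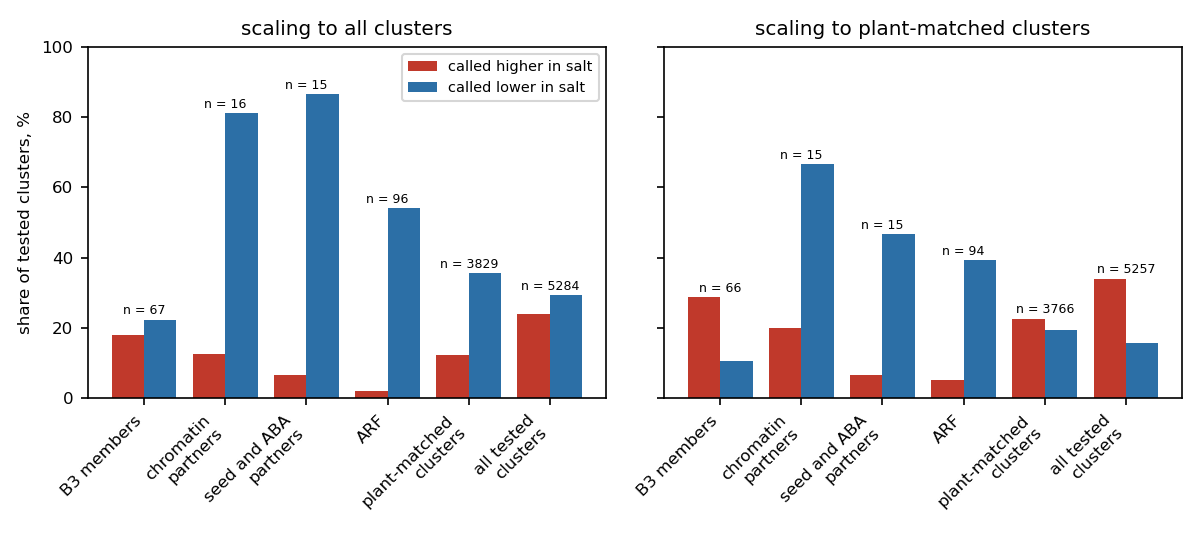
Share of tested clusters called higher (red) and lower (blue) in salt, in percent, for the B3 members, both partner lists, the auxin response factors, plant-matched clusters and all tested clusters, at the scaling to all clusters (left) and to plant-matched clusters (right); n is the number tested. The B3 members stand at 17.9% higher and 22.4% lower on the left, below the bars of all tested clusters, 23.9 and 29.3%. The plant-matched clusters stand there at 12.3 and 35.5%.

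Marks of UP stand beside 11 members and marks of DOWN beside 9 in the authors' deposited table. All 11 marked UP were called higher here and 8 of the 9 marked DOWN were called lower, the ninth not being tested. A further 1 higher and 7 lower calls here are not marked in the authors' deposited table. Every cluster marked there has an absolute log2 ratio above 1 and a q-value under 0.05. Of the 8 unmarked calls, 4 have a q-value under 0.05 and an absolute log2 ratio under 1 in the authors' deposited table, and the other 4 have a q-value of 0.05 or more. XLG1 is among those that miss on size alone, with a log2 ratio of -0.96 and a q-value of 5.1e-14 in the authors' deposited table.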

How the data were processed

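Per the file headers, the authors deposited expected counts, FPKM, Swiss-Prot match scores, their log2 ratio and their q-value for each transcription factor cluster, and FPKM for 469059 clusters in all. Per the submitters' processing notes, Bowtie2 2.0.6 and TopHat2 2.0.12 were used, with no role stated. Which assembler, counting tool and strand setting they used is not given in the sources used here. Without a genome, no positions or sequences are given.

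Expected counts were rounded and tested with the quasi-likelihood test of edgeR 4.0.16 (in R 4.3.3), with filterByExpr at its defaults and Benjamini-Hochberg adjustment over all tested clusters. Library size was the depth recovered from counts and FPKM (clusters of at least 200 counts and 1000 bases) times TMM factors from the FPKM of all clusters; CPM use this size. SE is that implied by the F statistic. Library-size recovery matters because the table holds 4.04 to 4.76% of each library. Alternatives used DESeq2 1.42.0 and limma 3.58.1 on log2(FPKM + 1), which understates changes of low clusters.

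Members and lists were chosen with earlier results of these data known. Named are the tested cluster of highest CPM of each protein name, the 10 smallest adjusted p in each direction, the 5 highest FPKM and clusters at 0 in 1 group; other clusters were named after their values were seen. P-values measure the spread between libraries labelled biological replicates.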

Additional observations from a re-analysis of the deposited data

How the results depend on the processing

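With the scaling to plant-matched clusters these counts moved: 19 members higher and 7 lower, VAL 1 lower, REM 1 lower, other B3 names 19 higher and 4 lower, seed and abscisic acid partners 7 lower, auxin response factors 5 higher, and summed sets 20 higher and 12 lower or, by name, 7 higher. DESeq2 size factors gave 1 lower VAL cluster and 6 lower clusters of other B3 names. At a change of at least 2-fold, chromatin partners had 1 higher, seed and abscisic acid partners 7 lower, auxin response factors 1 higher and RAV-type clusters 0 higher. Without the low-count filter, seed and abscisic acid partners had 0 higher. Limma on log2(FPKM + 1) and on log2(FPKM + 0.1) gave 1 lower RAV-type cluster each.

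Replicate numbers did not pair the libraries: the correlations of deviations between same-numbered libraries were 0.028, 0.037 and 0.0022. With the replicate number as a block, 8 members were higher and 10 lower, with 1 lower VAL and 1 lower REM cluster, and 1026 clusters were higher and 1118 lower in all.

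Leaving out 1 library at a time gave 10 to 13 higher and 10 to 15 lower members; 9 of the 12 higher and 9 of the 15 lower calls were made in each of these fits. Lower VAL calls ranged from 1 to 3, lower REM calls from 1 to 3, lower calls among other B3 names from 6 to 11, higher partner calls in seed and abscisic acid signalling from 0 to 1, and higher auxin response factors from 2 to 4. Lower calls among other B3 names numbered 6 without control replicate 1.

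The sign reversed for 2 clusters, neither of them called at the first scaling. Cluster-71316.134679 had log2 fold changes of 0.26 with DESeq2 size factors, 0.032 with column sums, 0.45 at the plant scaling, and -0.12 to 0.016 without 1 library, above 0 (0.0064 and 0.016) without salt replicate 2 or control replicate 1. Cluster-71316.73080 had 0.24, 0.010 and 0.44 at those 3 scalings, and -0.23 to 0.079 without 1 library, above 0 without control replicate 1 (0.079). The cause was not tested. At this depth 56 of 123 members were too low to test.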
